A study of Mus musculus with 2 samples.

Results

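CTCF binding was described at the genes that encode CTCF itself and 9 parts of the cohesin machinery, namely Ctcf, Rad21, Smc3, Stag1, Nipbl, Mau2, Wapl, Pds5a, Pds5b and Esco1. These 10 genes were taken by name from 21938 protein-coding genes of the GENCODE M21 annotation (mouse build mm10, mitochondrial genes left out). A peak belonged to a gene when its summit lay in the gene or within 20 kb of it. This gave 48 of the 57220 peaks in the list that the authors made from both replicates with the optimal setting of the irreproducible discovery rate, a method that keeps peaks whose rank repeats between lists. The series holds 1 group, newborn liver (postnatal, 0 days) of the mouse strain B6NCrl, with 2 replicates and no second condition, genotype or treatment. Per the labels, each replicate came from livers that were pulverized and pooled over several dissections, and the sex was not collected. Both replicates carry 1 biosample label, and the differences between them may be technical. A control experiment named in the labels was not analysed here.

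CTCF reads a long, directional DNA motif with its zinc fingers, and cohesin is a protein ring that extrudes DNA into loops until it meets bound CTCF in the right orientation. In the ring, SMC3 pairs with SMC1A, RAD21 closes it, and STAG1 or STAG2 binds RAD21 and touches CTCF. NIPBL and MAU2 load cohesin, WAPL with PDS5A or PDS5B releases it, and ESCO1 acetylates SMC3, which protects the ring from release. Liver at birth still holds blood-forming cells beside hepatocytes.

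The value of each peak is the signal the authors deposited, whose scale is not stated, and ranks run from 1 for the strongest peak of a list. Signal was compared within a list only, and each replicate list ends at 300000 peaks, so that ranks in both could be set side by side. The files used here give peaks and no read counts, so the depth is unknown. A site bound in few cells and one bound weakly in many cannot be told apart in such tissue, and no expression was measured against which to check the tissue label. The 5′ end of a gene is the outermost position of its model, and a peak at a start has its summit within 1 kb of it. A peak has the CTCF core when the 14-letter consensus core, named here and not spelled because it holds degenerate letters, is found within 50 bp of the summit on either strand with at most 2 mismatches.

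The cores below come from 6 of the genes and show sites named in the account that follows: cores at 5′ ends, strong sites beside or within a gene, and every perfect match. Capitals mark the core, read 5′ to 3′ on the strand named, in mm10 coordinates, and all letters come from the RefSeq assembly GRCm38.p6. The sites of Ctcf, Stag1 and the last of Pds5b match the consensus at every position.
Ctcf upstream, chr8:105622566-105622579, plus strand: CCACCAGGGGGCAG
Rad21 5′ end, chr15:51991880-51991893, minus strand: CCAATAGGTGGCTG
Smc3 5′ end, chr19:53599909-53599922, plus strand: CCAGCAGGAGGCGC
Smc3 downstream, chr19:53648909-53648922, plus strand: CCACTAGAGGGAGC
Stag1 internal start, chr9:100643573-100643586, plus strand: CCAGCAGAGGGCGG
Nipbl upstream, chr15:8451219-8451232, plus strand: CCAGCAGGGGGAGT
Pds5b 5′ end with 23 bases on either side, chr5:150673670-150673729, plus strand: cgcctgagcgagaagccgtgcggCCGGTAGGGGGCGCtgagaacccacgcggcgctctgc
Pds5b intron, chr5:150702889-150702902, minus strand: CCAGCAGGTGGCAC
No core occurs more than once in this set. The Rad21 core opens with the letters CCAAT, known as the CCAAT box where they stand in promoters.

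A second set of sequences is shown because 1 core recurs among the genes. CCAGAAGAGGGCAT was the best match in 4 of 29 member peaks with a core at 9 of the genes, and these 4 lay at Smc3, Mau2 and Pds5a. The 3 cores of Esco1, which include weak soft-masked sites, were not compared. It was also the commonest best core of the whole list, found in 2504 peaks or 6.15% of those with a core, and 94.0% of those 2504 summits lay in soft-masked sequence, which the RefSeq genome prints in lower case to mark repeats. With 1 base of difference allowed, 8 peaks of these 9 genes carried it and 7 of these were soft-masked. The next 5 sites, from these 8, show the 4 that most resemble each other beyond the core and, last, 1 that does not.
Pds5a intron, chr5:65667854-65667913, minus strand: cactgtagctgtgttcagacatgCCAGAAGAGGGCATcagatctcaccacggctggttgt
Pds5a 11389 bp upstream, chr5:65709614-65709673, minus strand: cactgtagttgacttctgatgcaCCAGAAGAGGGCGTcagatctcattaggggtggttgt
Mau2 upstream, chr8:70050579-70050638, plus strand: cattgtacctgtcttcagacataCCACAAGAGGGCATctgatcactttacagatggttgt
Wapl downstream, chr14:34753148-34753207, minus strand: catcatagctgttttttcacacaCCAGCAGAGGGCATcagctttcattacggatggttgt
Pds5a 8124 bp upstream, not soft-masked, chr5:65706347-65706406, minus strand: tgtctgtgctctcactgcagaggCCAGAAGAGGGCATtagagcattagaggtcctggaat
The first 4 shared 69.6% to 76.1% of the 46 bases beside the core in every pair. The last shared 28.3% to 34.8% with each of them. Of the sites not shown, a soft-masked one at Mau2, 29767 bp from the 5′ end, shared only 15.2% to 30.4% with the other soft-masked sites. The soft-masked sites at Smc3 and Stag1, also not shown, shared 45.7% to 56.5% with the first 4. Over all 28 pairs of the 8 sites the median was 40.2%, beside 26.1% over 210 pairs of the other member cores with such flanks. The signals of the 5 sites, in the order shown, were 29.1, 14.8, 20.98, 16.8 and 65.4.

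All 10 genes had at least 1 peak in the gene or within 20 kb, as had 80.8% of protein-coding genes. The number ran from 1 peak at Rad21 and Wapl to 7 at Ctcf and Pds5b. The median signal of the 48 peaks was 68.2, with a range of 11.7 to 517.5, beside a median of 71.2 over all peaks of the list. By place, 22 summits lay inside the genes and 26 outside. Of the 48 peaks, 4 ranked among the strongest 1000 of the 57220 and 10 among the strongest 5000. The last of the 4, at rank 970, stood in the top 1.70% of the list. The last of the 10, at rank 4976, stood in the top 8.70%.

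**Figure D1:**
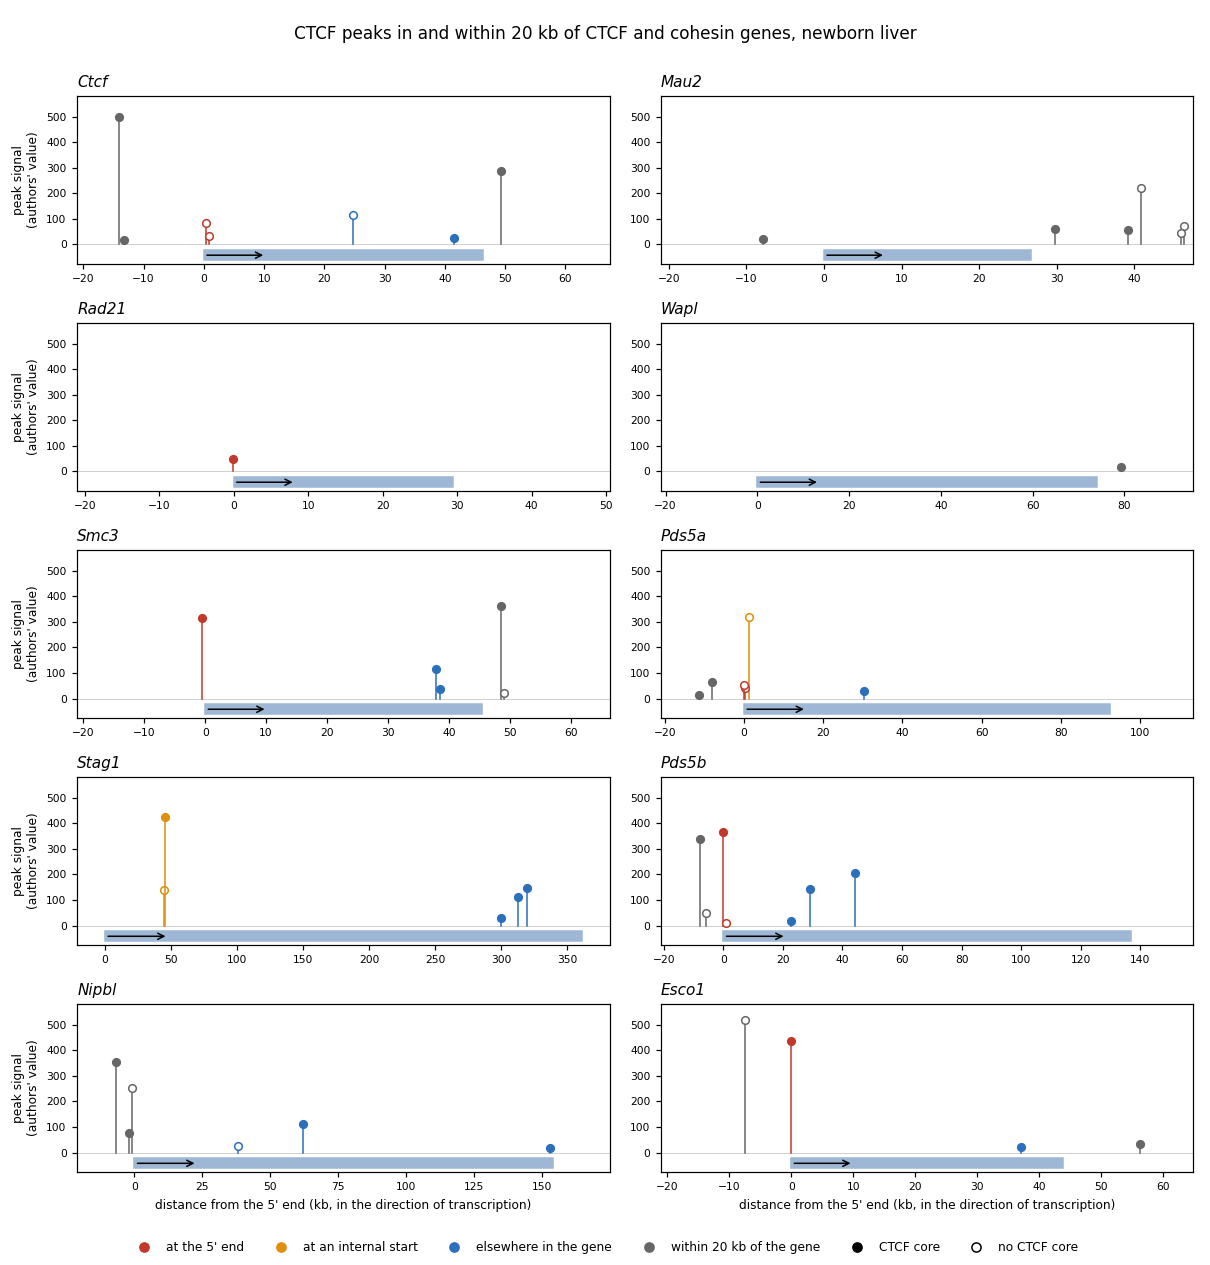
Signal of each CTCF peak (y, authors' value) by its distance from the 5′ end of the gene (x, kb, in the direction of transcription), in 10 panels, with the gene as a blue bar. Filled points have the CTCF core and open points do not; strong peaks stand beside Ctcf, Smc3, Nipbl, Pds5b and Esco1, and Rad21 and Wapl have 1 peak each.

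Ctcf (chromosome 8, 105636568 to 105682922, plus strand) had its strongest peak outside the gene. That site, 13997 bp upstream in Agrp, which encodes an appetite-promoting neuropeptide, had a signal of 498.4 and rank 237. The model of Agrp overlaps the 5′ end of Ctcf. In the replicates it had 251.8 (rank 276) and 251.2 (rank 197), and it carries the first perfect core shown above. A weak peak of 18.2 lay 13287 bp upstream, also in Agrp, with its core on the opposite strand.

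At the 5′ end of Ctcf there were 2 weaker peaks, both without the core. The first, 275 bp into the gene in an intron, had a signal of 83.5, with 43.7 (rank 25839) in replicate 1 and 38.2 (rank 27192) in replicate 2. The second, 784 bp into the gene, had 32.6, with 24.3 (rank 34946) and 8.3 (rank 57621). That second peak thus ranked lower in replicate 2, and its summit lay 2 bp from an annotated start of the noncoding gene Gm5914. Agrp and Gm5914 both have a start within 1 kb of both peaks, and both peaks lie inside the models of these genes. Further peaks stood in introns 24795 bp (signal 115.8, no core, 576 bp from the pseudogene Gm5915) and 41521 bp (26.8, core) from the 5′ end. A strong one of 286.6 lay downstream, 368 bp from a start of Carmil2, a gene for a regulator of actin capping. In the replicates it had 144.9 and 143.3.

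Among the ring subunits, Rad21 (chromosome 15, 51962240 to 51991747, minus strand), the kleisin that closes the ring, had the fewest sites together with Wapl. Its only peak stood 150 bp upstream of the 5′ end, with a signal of 50.5 and rank 34049. Replicate 1 gave 23.6 (rank 35500) and replicate 2 gave 30.3 (rank 30728). No other peak of the list lay in the gene or within 20 kb.

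Smc3 (chromosome 19, 53600398 to 53645833, plus strand), the ATPase arm that ESCO1 acetylates, had a strong site on either side. The peak 468 bp upstream of its 5′ end had a signal of 314.3 and rank 4976, with 156.0 (rank 5484) and 158.4 (rank 4590) in the replicates. The annotated start of AC137853.1, a transcript still to be verified experimentally, lay 519 bp from it. The strongest peak lay beyond the 3′ end, 48529 bp from the 5′ end. There the signal was 362.7 at rank 2765, with 196.9 (rank 1969) in replicate 1 and 164.4 (rank 3991) in replicate 2. Both cores have 1 mismatch and point in the direction of transcription. Between them, 2 intronic peaks of 116.5 and 36.0 have cores on the opposite strand, and the stronger of these is the recurrent core in a soft-masked sequence. A last peak of 19.9 without the core stood 49099 bp from the 5′ end.

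Stag1 (chromosome 9, 100597798 to 100959375, plus strand), the longest of the 10 genes at 361.6 kb, had no peak at its 5′ end. It had 2 peaks at internal starts, and 14 distinct starts are annotated. The stronger stood 45783 bp into the gene and 19 bp from the start of a retained-intron transcript, and 133 bp from the start of the gene in the RefSeq promoter table. Its signal was 425.5 at rank 970, with 212.5 (rank 1185) and 212.4 (rank 893) in the replicates. The weaker, 45092 bp into the gene and 558 bp from a protein-coding start, had 140.2, with 78.2 (rank 17275) and 62.9 (rank 19951), and no core. The other 3 peaks formed a group in introns far downstream, between 300437 and 319518 bp from the 5′ end, with signals of 28.4, 109.7 and 145.6. All 3 have cores on the strand opposite to the gene, facing the perfect core at the internal start.

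The loader Nipbl (chromosome 15, 8290617 to 8444463, minus strand) had 3 peaks upstream and none at its 5′ end in the list. The nearest was 1013 bp upstream, just past the limit of 1 kb, with a signal of 253.9 at rank 8786 and no core. The replicates gave 130.4 (rank 8711) and 123.4 (rank 8954). The strongest stood 6770 bp upstream with 352.2 at rank 3170, and had 172.5 (rank 3814) and 181.0 (rank 2561) in the replicates. The peak between them, 2128 bp upstream, had 77.3. Inside the gene the signals were 26.2 and 112.3 in introns and 16.4 in a coding exon, the only exonic summit away from a start among the 48 peaks. A weak peak 201 bp upstream of the 5′ end was in the conservative list with 24.8 and in the replicates with 12.6 and 11.9, but not in the optimal list. It lay 812 bp from the nearest optimal peak.

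Mau2 (chromosome 8, 70016123 to 70042734, minus strand), the partner of NIPBL, had no peak in the gene or at its 5′ end. Of its 6 peaks, 5 lay downstream. The strongest of these stood 40892 bp from the 5′ end with 222.5 at rank 11154, and had 101.9 (rank 13000) and 121.2 (rank 9253) in the replicates. It lay in soft-masked sequence and has 3 mismatches to the consensus. Signals of 70.9 and 42.9 were found 65 and 333 bp from starts of Gatad2a, which encodes a subunit of the NuRD chromatin remodeller, and neither has the core. The second of these had 31.3 (rank 30856) in replicate 1 and 11.6 (rank 48435) in replicate 2. The remaining downstream peaks had 55.0 and 58.8, and the peak upstream, in the splicing gene Sugp1, had 20.98.

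Wapl (chromosome 14, 34673928 to 34747983, plus strand), the release factor, had the lowest density of peaks of the 10 genes. Its only peak lay downstream, 79249 bp from the 5′ end, with 16.8 at rank 52918, and 8.8 and 6.7 in the replicates. The core there is 1 base away from the recurrent one. Upstream, the nearest peak of the list was 52.7 kb from the gene with a signal of 271.9, and the next one beyond the downstream window was 21.2 kb from the 3′ end with 369.8.

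Pds5a (chromosome 5, 65605721 to 65698273, minus strand), a cohesin regulator that recruits WAPL, had its strong peak at an internal start. That peak was 1339 bp into the gene and 69 bp from the start of a retained-intron transcript, with a signal of 317.0 at rank 4839. It had 175.1 (rank 3583) in replicate 1 and 141.8 (rank 6501) in replicate 2, and 3 mismatches to the consensus. The 5′ end itself held 2 weaker peaks without the core. The one 54 bp upstream had 52.0, with 25.6 (rank 34074) and 25.3 (rank 33567), at similar ranks in both. The one 302 bp into the gene had 39.7, with 28.3 (rank 32440) and 10.2 (rank 51794), a better rank in replicate 1. The other 3 peaks, of 65.4, 29.1 and 14.8, all carry the recurrent core or a form 1 base away and are the Pds5a sites shown above.

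Pds5b (chromosome 5, 150673739 to 150810690, plus strand), the paralogue of Pds5a, had its strongest peak at the 5′ end. The summit was 21 bp upstream, with a signal of 365.7 at rank 2656, and 183.1 (rank 2926) and 182.3 (rank 2462) in the replicates. The weaker peak at this end, 831 bp into the gene, was the lowest of all 48 with 11.7, and had 7.1 (rank 64078) and 7.2 (rank 62503). A strong peak of 336.3 lay 7872 bp upstream, 255 bp from a start of N4bp2l2, with 165.4 and 170.6 in the replicates, and one of 47.2 stood 6001 bp upstream. Inside the gene 3 introns' peaks had 16.5, 144.7 and 203.8, all with cores on the opposite strand, so that they face the core at the 5′ end. The weakest of these had 4.5 in replicate 1 and 11.99 in replicate 2. Pds5a and Pds5b thus differed in where the strong site lay and in its core.

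Esco1 (chromosome 18, 10566507 to 10610352, minus strand), the acetyltransferase, had the strongest peaks of the 10 genes at both its 5′ end and its surroundings. The peak 61 bp upstream of the 5′ end had 436.9 at rank 792, with 208.1 (rank 1375) and 227.3 (rank 530) in the replicates, and its core has 1 mismatch. The peak 7398 bp upstream had 517.5 at rank 161, with 260.6 (rank 193) and 258.7 (rank 136). That peak stood 25 bp from a start of Snrpd1, a gene for a core protein of spliceosomal particles, and has 3 mismatches. Weak peaks of 22.97 in an intron and 35.2 downstream, 306 bp from a start of Greb1l, both lay in soft-masked sequence.

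Across the genes, 6 of 10 had a peak at the 5′ end (Ctcf, Rad21, Smc3, Pds5a, Pds5b and Esco1), beside 28.3% of protein-coding genes. At 5′ ends rich in CpG, where GC made up 50% or more of the bases within 500 bp and CpG occurred at 0.6 or more of its expected frequency, the share over all genes was 45.7%. Of the 10 genes, 9 had such a CpG-rich end and Stag1 did not. With internal starts the count was 7 of 10, which adds Stag1, beside 36.2% of protein-coding genes. A gene with more annotated starts has more places where a peak counts, and the 10 genes have from 1 (Nipbl) to 14 (Stag1 and Pds5a). The 36.2% was not matched for the number of starts or for CpG content. No test of these counts was made, since the genes were chosen with earlier results of these data known. Each replicate's own list, taken to the same length, gave 7 genes at the 5′ end, Nipbl being the addition.

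Among the 6 genes the strongest 5′ end peak had a median signal of 198.9, beside 60.7 over the 6206 protein-coding genes with such a peak. The values fell into 2 sets. Esco1, Pds5b and Smc3 exceeded 96.7%, 92.5% and 87.8% of those genes, and Ctcf, Pds5a and Rad21 exceeded 57.8%, 45.9% and 45.1%. The strongest peak of a gene was at the 5′ end in 2 genes, at an internal start in 2, upstream in 3 and downstream in 3. Its median was 357.5, beside 261.0 over all genes with a peak in the same kind of window; the 10 genes are long, with a median of 60.2 kb beside 17.4 kb, so their windows are wider.

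**Figure D2:**
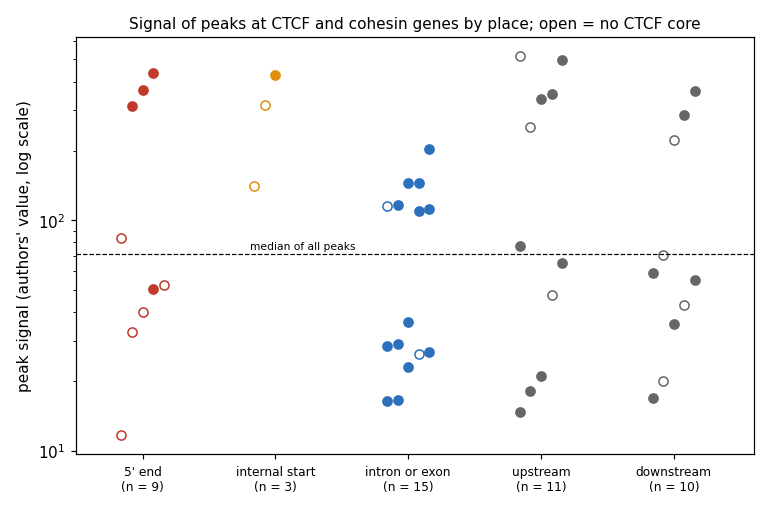
Signal of the 48 peaks (y, authors' value, log scale) by place (x), filled with and open without the CTCF core; the dashed line is the median of all peaks in the list, 71.2. Of the 9 peaks at 5′ ends, 5 lack the core and these reach at most 83.5, while the 3 peaks with signals of 314.3 and above have it.

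The core was present in 32 of 48 peaks, or 66.7% (exact 95% interval 51.6% to 79.6%, counting error only), beside 71.2% of all peaks. At 5′ ends it was present in 4 of 9 peaks, beside 42.1% of all peaks within 1 kb of the 5′ end of a protein-coding gene. Taking 5′ ends and internal starts together, 7 of 12 peaks lacked it, and 27 of the 36 other peaks had it. Over the whole list the core was likewise rarer near 5′ ends, at 42.1% beside 71.2%. This contrast is thus not particular to the 10 genes. Starts of other genes lay within 1 kb of 10 member peaks, and of protein-coding genes in 8 of these. The matching share over all peaks was not computed, so it is unknown whether this count is usual. Of the 16 peaks without the core, 11 lay within 1 kb of a start of a member or another gene, beside 34.1% of all peaks without the core. That share includes peaks far from any gene, whereas every member peak lay in a gene or within 20 kb of it by definition. The sets are therefore not alike in their closeness to starts. The median signal was 71.3 with the core and 61.5 without, beside 98.8 and 35.7 over all peaks.

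The match to the consensus and the signal did not run in parallel throughout. The 3 perfect cores had a median signal of 425.5, the 13 with 1 mismatch 145.6 and the 16 with 2 mismatches 32.5. The 8 peaks whose best match had 3 mismatches had a median of 153.0, but no peak lay near it. Their signals were 32.6, 42.9, 52.0 and 83.5, and then 222.5, 253.9, 317.0 and 517.5. The values from 222.5 upward are the strong sites at Mau2, Nipbl, Pds5a and Esco1 named above. By a weight matrix described below, the site at Mau2 had a match, and those at Nipbl, Pds5a and Esco1 fell short of its limit. The group with 2 mismatches includes many weak soft-masked sites. Of the 10 member peaks within the strongest 5000 of the list, 8 had the core, and the sites at Pds5a (317.0) and Esco1 (517.5) did not.

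Soft-masked summits made up 12 of the 48 peaks, or 25% (interval 13.6% to 39.6%), beside 22.4% of all peaks. These 12 had a median signal of 25.7 and reached 222.5 at Mau2, beside a median of 111.0 for the other 36. Over all peaks the medians were 46.8 and 85.2. The core was present in 10 of the 12.

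Of the 32 cores, 14 lay on the strand of their gene and 18 on the opposite strand. Neighbouring peaks with a single best core gave 22 pairs within the genes' windows. Of these, 11 were tandem (same strand) and 5 divergent. The other 6, or 27.3% (interval 10.7% to 50.2%), were convergent, the arrangement known at loop anchors, beside 22.7% of such pairs in the windows of all protein-coding genes. There was 1 convergent pair each at Ctcf, Smc3, Stag1, Nipbl, Pds5b and Esco1. The peaks of the Ctcf pair were only 0.71 kb apart, and those at Ctcf, Stag1, Pds5b and Esco1 include a weak peak of 16.5 to 28.4. Contacts were not measured, so these pairs describe sequence only.

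All 48 peaks were matched in both replicate lists by a summit within 100 bp, as were 97.1% of all peaks. This outcome was largely built in, since the list was made from both replicates and each replicate list runs to 300000 peaks. The weakest intronic peak of Pds5b, for example, was matched at rank 101371 in replicate 1. The plot of ranks in both replicates shows that 22 ranked higher in replicate 1 and 26 in replicate 2. For 39 peaks the ranks were within 1.5 times of each other. Of the 9 others, 4 lacked the core and all 4 ranked better in replicate 1: the second peak at the 5′ end of Ctcf, 2 peaks of Pds5a (302 and 1339 bp into the gene) and one at Gatad2a. The other 5 had the core, and 1 of these, downstream of Smc3, ranked better in replicate 1. No share over all peaks was computed for ranks this far apart, so these small counts describe the 9 peaks only. Whatever the gap in rank, peaks without the core at a start of any gene ranked better in replicate 1 in 6 of 11 member peaks. The share was 50.4% of the 4991 such peaks of the list. The widest gap among the stronger peaks was at the 5′ end of Esco1, where the ranks differed 2.59 times.

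**Figure D3:**
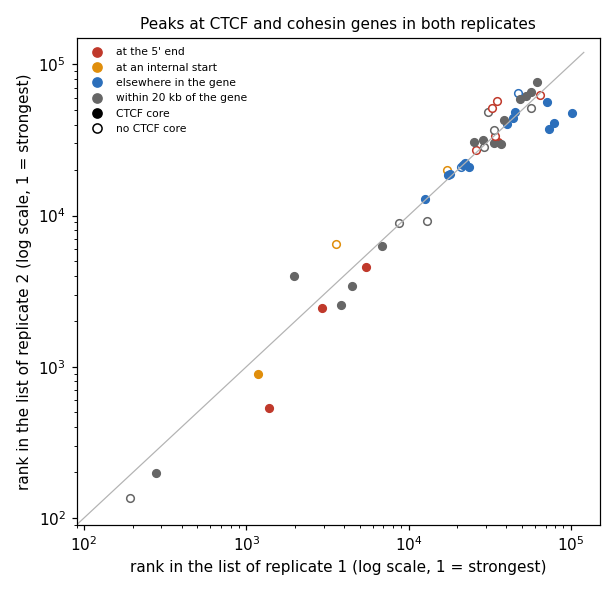
Rank of each of the 48 peaks in the list of replicate 1 (x) and of replicate 2 (y), both on log scales with 1 as the strongest; colour gives the place, open points lack the CTCF core and the line marks equal ranks. The points follow the line, and 9 peaks have ranks over 1.5 times apart.

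In the conservative list, 39 of the 48 peaks had the same summit, as had 87.8% of all optimal peaks. The 9 that did not were weak, with signals of at most 42.9. The conservative list held 8 further peaks in these windows, with signals of 7.1 to 27.2, of which 2 had the core. These include the Nipbl peak named above and a peak 49 bp into Smc3 with 27.2, or 12.2 and 13.5 in the replicates.

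The density of peaks differed widely between the genes. It ran from 9.01 peaks per 100 kb at Mau2 and 8.11 at Ctcf to 1.44 at Rad21, 1.25 at Stag1 and 0.88 at Wapl. The median of the 10 was 4.24, beside 4.13 over all protein-coding genes. Summed over all windows it was 3.40, beside 4.06 over the windows of all genes.

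**Figure D4:**
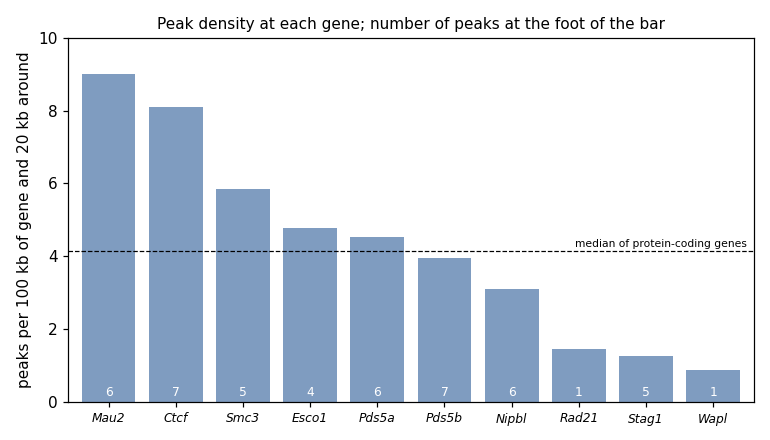
Peaks per 100 kb of each gene with 20 kb on either side (y) for the 10 genes (x), with the number of peaks at the foot of each bar and the median of all protein-coding genes, 4.13, as a dashed line. Mau2 and Ctcf stand highest, and Rad21, Stag1 and Wapl lowest.

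Other genes of the same functions were counted from a list of 34. A peak at the 5′ end was found in 15 of them, or 44.1%, beside 28.3% of all genes. Of the 34, 29 had a CpG-rich end, and the share over all genes with such an end was 45.7%. Further cohesin genes had it in 2 of 10, Stag2, the X-linked paralogue of Stag1, with a signal of 266.2 and Sgo1, which protects cohesin at centromeres, with 216.5. Of those 10, Smc1a, the ring partner of Smc3, and Espl1, the separase that cleaves RAD21, had a peak at an internal start only. Germ cell forms had it in 1 of 5, the meiotic kleisin Rec8 with 59.7. Genes of condensin, SMC5/6 and the related SMC protein SMCHD1 had it in 7 of 11, all below the median signal of the list, led by Ncapd3 (37.6), Smc6 (33.5) and Ncapd2 (31.1). Other looping factors had it in 5 of 8, with Adnp at 364.1, Yy1 at 40.04 and Zfp143 at 19.2.

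Promoter letters were counted in the RefSeq promoter table of GRCm38.p6, 250 bases before to 50 after each start, where 7 of the 10 genes matched by symbol (Ctcf, Smc3, Stag1, Mau2, Wapl, Pds5a and Pds5b). The GC box, GGGCGG on either strand, was found in all 7, beside 35.7% of 32851 promoters. That share covers promoters of any base content, whereas all of these 7 genes but Stag1 have a CpG-rich 5′ end. No share over CpG-rich promoters was computed. Each gene was counted once, although Mau2 has another entry at an internal start, and the Stag1 entry lies at its internal start. CCAAT was found in 3 of 7 (Stag1, Wapl and Pds5b), beside 37.4%, and the E-box CACGTG in Mau2, beside 7.15%. The letters CCGGAAG (ETS), AAGATGG (YY1), GCATGCGC (NRF1), ACTACAATT (ZNF143) and TGACGTCA (CRE) were not in these windows, beside 8.86%, 6.34%, 2.71%, 0.39% and 1.79% of promoters. Some of these motifs can overlap each other, and a match is a description of letters only.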

How the data were processed

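The authors deposited 5 narrowPeak lists on mm10, per the labels: 1 for each replicate, a pooled list, and a conservative and an optimal list. Peak signal was used as deposited, with no stated scale. The deposited −log10 q value was not used in a result. The summit is the start plus the offset deposited in the last column, an other value in bases. Aligner and peak caller were not given in the sources used here.

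Genes and lists were chosen with earlier results of these data known. All 10 genes were named, each with every peak in the gene or within 20 kb. Full values are given for the strongest peak and for peaks at starts, flanking bases for 6 sites, and from the list of 34 genes the 3 strongest 5′ end peaks of a group. With 1 group no test was made. Shares have exact Clopper-Pearson 95% intervals. GENCODE M21 gave the genes and GRCm38.p6 the sequence. The core search was tested on simulated sequence. Python 3.11.15, numpy 2.4.6, scipy 1.17.1, pysam 0.24.0 and matplotlib 3.10.9 were used. Other lists, distances, mismatches and, added after seeing the data, a weight matrix were tried.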

Additional observations from a re-analysis of the deposited data

How the results depend on the processing

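No tests were made, so only values can be compared. The count of 48 peaks became 33 within 5 kb and 71 within 50 kb of the genes. No paired analysis was possible because there is only 1 group. With the stronger part of the optimal list (signal at or above its median), 23 peaks remained, the median signal was 253.9, the density was 1.63 peaks per 100 kb, and 4 genes had a 5′ end peak, beside 13.0% of all genes. The density was 3.33 with the conservative list, 3.54 with the pooled list, 2.97 within 5 kb and 3.53 within 50 kb of the genes, and 3.40 to 3.47 when each replicate was left out. The core was present in 33.3% of peaks with 1 mismatch allowed and in 83.3% with 3. The share over all peaks was not computed at these settings, so neither value can be set against it. A weight matrix of 20 positions, chosen after seeing the data and built from 3357 sites outside the windows, found it in 60.4%, beside 63.8% of all peaks. A match had to score above 99% of windows displaced by 1 kb from the summits. The sites were cores with at most 1 mismatch among the strongest 5000 peaks. The matrix is thus not independent of the core, and its likeness to the core share is partly built in. Of the 16 member peaks without the core, 1 had a match by the matrix, the Mau2 site with a signal of 222.5. The sites with 3 mismatches at Nipbl (253.9), Pds5a (317.0) and Esco1 (517.5) did not pass. They scored above 97.27% to 98.11% of the displaced windows. The conservative, pooled and replicate lists, and a limit of 2.5 kb, each gave 7 genes with a 5′ end peak by adding Nipbl, beside 26.8% of all genes in the conservative list and 37.7% at 2.5 kb. Pooled livers with 1 biosample label give no spread between animals.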

Other observations

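Beyond the windows, the nearest peaks of the list differed between the genes. Upstream of Smc3 the next peak was 21.3 kb from the gene, with a signal of 362.4 and a perfect core. Ctcf had perfect cores at the next peak on either side, with signals of 162.8 at 28.8 kb upstream and 349.9 at 31.4 kb downstream. Nipbl had its next peaks 133.3 kb upstream (176.5) and 90.1 kb downstream (63.2). Pds5b had weak ones at 76.9 kb upstream (44.4) and 98.9 kb downstream (30.0).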
